A study of Mus musculus with 6 samples.

Results

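The 10 genes described here supply reduced glutathione and reduced thioredoxin, and they were followed in mouse granulosa cells (GCs) treated with DHT: Nfe2l2, Keap1, Slc7a11, Gclc, Gclm, Gss, Gsr, Txn1, Txnrd1 and Srxn1. They were taken by gene name from a list drawn up with earlier results of these data known, and all 10 were found among the 16300 genes of the deposited table. The messages of 8 of the 10 fell with DHT, none rose, and Keap1 and Txn1 did not pass the test, while of all genes tested 4.66% fell and 6.52% rose. Without the intensity trend of the test, which lets the expected spread vary with the level of a gene, 3 of the 8 kept an adjusted p of 0.05 or less, Nfe2l2, Gclm and Txnrd1. The largest falls were those of Srxn1, Gclm, Slc7a11 and Txnrd1, to between 51.1% and 61.2% of the control mean. The smaller falls were those of Gsr, Nfe2l2, Gclc and Gss, to between 77.3% and 84.6% of the control mean. No member had an absolute log2 fold change above 1, the size that the study asks for beside an adjusted p.

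The study asked how androgen changes gene expression in GCs, the somatic cells that surround and nourish the oocyte. RNA was sequenced from primary GC cultures of wild type C57BL/6J mice 8 to 9 weeks old, with 3 libraries of untreated control cells and 3 libraries of cells given 25 nM DHT (dihydrotestosterone, an androgen that cannot be turned into estrogen) for 24 h. According to the study's methods, cells came from ovaries on the day of estrus, were grown in serum and then kept in serum-free medium. Each library held GCs pooled from 5 animals, so the spread between libraries is a spread between pools. The labels describe the RNA source as whole ovary and repeat the DHT treatment for all samples, so groups were taken from the treatment entry of each sample. Whether a control culture and a DHT culture came from the same pool of animals is not given in the sources used here. The libraries held between 36111177 and 41928585 reads counted in genes, as recovered from the smallest steps of the deposited values, and in no pair of libraries, within or between groups, did more than 2% of genes have equal read counts, so none looked deposited again.

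Glutathione is a small thiol that keeps cells reduced. Cystine enters through the transporter Slc7a11, the ligase made of Gclc and Gclm joins the resulting cysteine to glutamate, Gss adds glycine, and Gsr returns oxidized glutathione to its reduced form with NADPH. Thioredoxin (Txn1) is a small protein that reduces disulfides in other proteins, Txnrd1 recharges it with NADPH, and Srxn1 repairs over-oxidized peroxiredoxins. The transcription factor NRF2, encoded by Nfe2l2, is known to drive these genes through antioxidant response elements in their control regions, and KEAP1 holds NRF2 low by directing its degradation. NRF2 is therefore largely set at the protein level, which messenger counts do not measure. In the ovary, GCs meet oxidants from steroid synthesis and from ovulation.

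All 10 genes are protein-coding, and their positions on the mouse genome GRCm38 are those of the GENCODE M21 annotation. Of the regulators, Nfe2l2 lies at chr2:75675513-75704641 on the minus strand and Keap1 at chr9:21229730-21239361 on the minus strand. Of the glutathione genes, Slc7a11 spans chr3:49892526-50443614 (minus), Gclc chr9:77754535-77794485 (plus), Gclm chr3:122245557-122270732 (plus), Gss chr2:155563181-155592810 (minus) and Gsr chr8:33652523-33698163 (plus). Of the thioredoxin genes, Txn1 spans chr4:57943373-57956411 (minus), Txnrd1 chr10:82833951-82897712 (plus) and Srxn1 chr2:152105516-152111376 (plus).

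Promoter sequence was read for 8 of the 10 genes from RefSeq (GRCm38.p6), and Gclc and Gsr had no entry in the table used. The 250 bases before each start were searched on both strands for TGACNNNGC, the core letters of the antioxidant response element. A gene counted if a match stood before any of its starts, and Txnrd1 had 3 starts where each other member had 1. The pattern was present for 3 of the 8 genes, Nfe2l2, Gclm and Txnrd1, against 11.5% of 27025 genes with such a window. These 3 stretches are shown because they are the places near a start where the members carry those letters. Each is written 5′ to 3′ on the strand of its gene, with the matching letters in capitals, and in Gclm and Txnrd1 the match lies on the opposite strand, so the capitals show its reverse complement.
Nfe2l2, chr2:75704875-75704913, minus strand: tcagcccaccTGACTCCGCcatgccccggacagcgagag
Gclm, chr3:122245403-122245451, plus strand: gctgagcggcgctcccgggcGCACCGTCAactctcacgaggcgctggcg
Txnrd1, chr10:82859094-82859142, plus strand: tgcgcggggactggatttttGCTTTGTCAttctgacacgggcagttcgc
The matches begin 240, 134 and 92 bases before the RefSeq start, in that order. The Nfe2l2 stretch lies in an exon of the noncoding gene E030042O20Rik, the Gclm stretch lies outside annotated genes, and the Txnrd1 stretch lies in an intron of Txnrd1, ahead of a start within the gene. The stricter form TGACTCAGC was found for 0 of the 8 genes and for 0.426% of all genes. The full androgen response element, AGAACA followed after 3 free bases by its reverse complement, was likewise found for 0 of the 8 and for 0.0111% of all genes. AGAACA by itself, which every match of the full element also holds, was found for Gclm, Slc7a11 and Txnrd1, against 18.2% of all genes. These are matches of letters in a short window, and no binding was measured here.

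The values below are normalized counts, that is reads counted in the exons of a gene and divided by a size factor for its library. Differences were tested with limma across 16292 genes, on log2(normalized count + 1), with Benjamini-Hochberg adjustment over all of those genes. A gene passed when its adjusted p was 0.05 or less, and log2 fold changes are DHT minus control with their standard error (SE). At that threshold 1063 genes rose and 760 fell, which are the shares given at the start. Of the 10 members, 8 fell and 0 rose, and by unadjusted p (0.05 or less) 9 were lower and 0 higher, where of all genes tested 11.8% were lower and 13.4% higher. In 9 of the 10 members every DHT library lay below every control library, a pattern met in 14.7% of all genes. A limma adjusted p of 0.05 or less together with a log2 fold change below −1, the sizes of threshold that the study used with its own test, was met by 0.399% of genes and by 0 members. The median log2 fold change was −0.36 over the members and −0.0052 over all genes tested, so the scaling left all genes centred near no change. Without the intensity trend the fold changes were the same, and the limma adjusted p was 0.0632 for Srxn1, 0.0860 for Slc7a11, Gclc and Gsr, and 0.130 for Gss, so that these 5 calls rest on the trend.

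**Figure D1:**
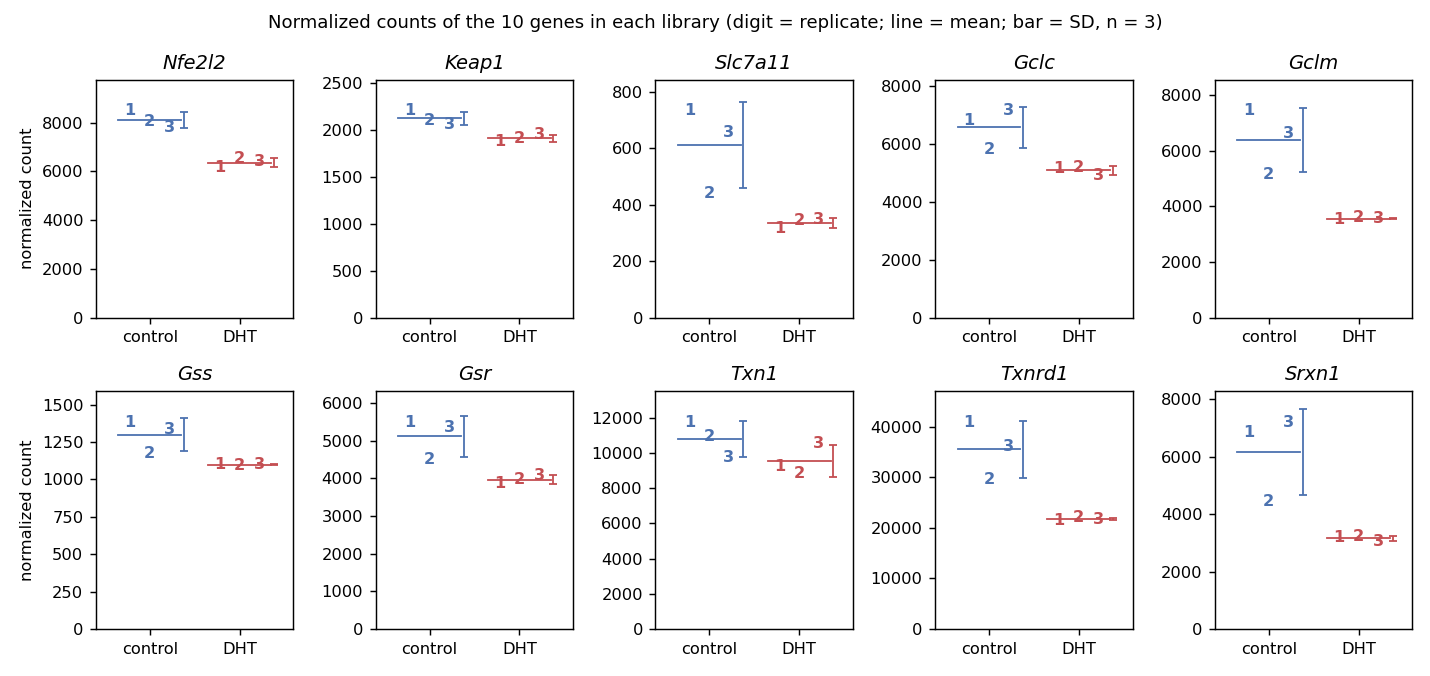
Normalized count (vertical axis, starting at 0) of each of the 10 genes in the control and DHT libraries, each library drawn as its replicate number, with the mean as a line and the SD of the 3 libraries as a bar. The DHT libraries lie close together and below all 3 controls for 9 genes, and only for Txn1 do the groups overlap.

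Nfe2l2, the gene of NRF2, had normalized counts of 8491, 8033 and 7810 in the control libraries and 6151, 6519 and 6415 in the DHT libraries. The groups did not overlap, and the mean fell from 8111 ± 348 to 6362 ± 190 (SD, n = 3 each). The log2 fold change was −0.35 (SE 0.043, limma adjusted p = 0.00114), a fall of 21.6%. Keap1, the gene of its inhibitor, had 2207, 2104 and 2063 in control and 1880, 1911 and 1950 with DHT. These groups did not overlap either, and the log2 fold change of −0.15 (95% interval −0.25 to −0.055) narrowly missed the threshold with an adjusted p of 0.0534 by limma. Without control replicate 3 it passed (adjusted p = 0.0416), and without control replicate 1 the adjusted p was 0.146. Of the exon length of Keap1, 10.9% is shared with the antisense gene Gm16754, whose mean count went from 50.1 to 37.4 without passing (adjusted p = 0.353). The log2 ratio of the Keap1 count to the Nfe2l2 count was −1.93 ± 0.012 in control and −1.73 ± 0.033 with DHT (SD, n = 3 each), with no overlap between the groups.

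Slc7a11, the cystine carrier that brings in the limiting amino acid, had the lowest counts of the set, with 733, 440 and 658 in control and 314, 345 and 348 with DHT. All 3 DHT libraries lay below the lowest control, which was control replicate 2. Its log2 fold change was −0.83 (SE 0.165, limma adjusted p = 0.0128), with DHT at 55.0% of the control mean.

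Gclc, the catalytic part of the ligase that sets the rate of glutathione synthesis, had 6793, 5787 and 7140 in control and 5145, 5185 and 4904 with DHT. Its log2 fold change was −0.37 (SE 0.071, adjusted p = 0.0111 by limma), and without DHT replicate 3 the adjusted p rose to 0.0576. Gclm, the modifier part of the same ligase, had 7444, 5163 and 6607 in control and 3526, 3587 and 3579 with DHT. The DHT libraries were nearly equal and the controls were not, and the mean fell from 6405 ± 1154 to 3564 ± 33.3 (SD, n = 3 each). The log2 fold change of Gclm was −0.83 (SE 0.108, limma adjusted p = 0.00162), larger than that of its partner.

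The difference between the Gclc and Gclm counts can be read within each library, where the library's scaling cancels. The log2 ratio of Gclc to Gclm was −0.13, 0.16 and 0.11 in control and 0.55, 0.53 and 0.45 with DHT. The ratio was higher in every DHT library than in any control library, by 0.46 on the log2 scale. In an exact two-sided permutation test the p-value was 0.1, the smallest that 3 against 3 libraries allow, and after adjustment over the 4 ratios compared it was also 0.1. These ratios are not scaled to transcript length, so they show a shift between groups and not how much of each subunit is present. Of the exon length of Gclm, 4.71% is shared with Gm17494 on the other strand (log2 fold change −0.56, limma adjusted p = 0.151) and 3.88% with the pseudogene Gm6061.

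Gss, the enzyme that completes glutathione, had 1383, 1176 and 1337 in control and 1103, 1094 and 1098 with DHT. Its log2 fold change of −0.24 (SE 0.063, adjusted p = 0.0444 by limma) was the smallest that passed. This call was also the least stable, since the adjusted p was between 0.0845 and 0.136 when any library other than control replicate 2 was left out, and 0.00956 without control replicate 2. Gss shares 6.68% of its exon length with Acss2 on the other strand, a gene of acetyl-CoA synthesis whose mean count rose from 904 to 1805 (limma adjusted p = 0.0004). The strand setting of the counting is not given in the sources used here, so reads of the shared bases cannot be assigned to Gss or Acss2. Gsr, which regenerates reduced glutathione, had 5497, 4504 and 5346 in control and 3856, 3974 and 4081 with DHT. Its groups did not overlap, with a log2 fold change of −0.36 (SE 0.070, limma adjusted p = 0.0113). The log2 ratio of Gsr to Gss moved little, from 1.98 ± 0.033 to 1.85 ± 0.044 (SD, n = 3 each), although the groups stayed apart.

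Txn1, the thioredoxin itself, had 11750, 10919 and 9721 in control and 9217, 8820 and 10551 with DHT. It was the only member whose groups overlapped, through DHT replicate 3 and control replicate 3. The log2 fold change was −0.18 (95% interval −0.36 to 0.0021) with an adjusted p of 0.204 by limma. The annotation holds 1 pseudogene named after Txn1, and the part of its reads in these counts was not tested. Txnrd1, the reductase that recharges thioredoxin, had the highest counts of the set, with 40904, 29534 and 36094 in control and 21458, 22001 and 21734 with DHT. Its mean fell from 35511 ± 5708 to 21731 ± 272 (SD, n = 3 each), a log2 fold change of −0.70 (SE 0.098, limma adjusted p = 0.00233). Srxn1, the sulfiredoxin, had 6845, 4434 and 7205 in control and 3191, 3207 and 3052 with DHT. It showed the largest fall of the 10, with a log2 fold change of −0.94 (SE 0.152, limma adjusted p = 0.00493) and DHT at 51.1% of the control mean. As large a fall as that of Srxn1 was met in 1.10% of all genes tested.

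The carrier and its recharging enzyme thus differed in size of change, and this can also be read within libraries. The log2 ratio of Txnrd1 to Txn1 was 1.80, 1.44 and 1.89 in control and 1.22, 1.32 and 1.04 with DHT. Every DHT library was below every control library, with a difference of −0.52 that ranged from −0.65 to −0.42 when 1 library was left out. The exact two-sided permutation p was 0.1, again the smallest possible, for this ratio and for those of Keap1 to Nfe2l2 and Gsr to Gss. With any DHT library left out, the exact permutation p was 0.2 for Txnrd1 to Txn1 and stayed at 0.1 for the other ratios.

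**Figure D2:**
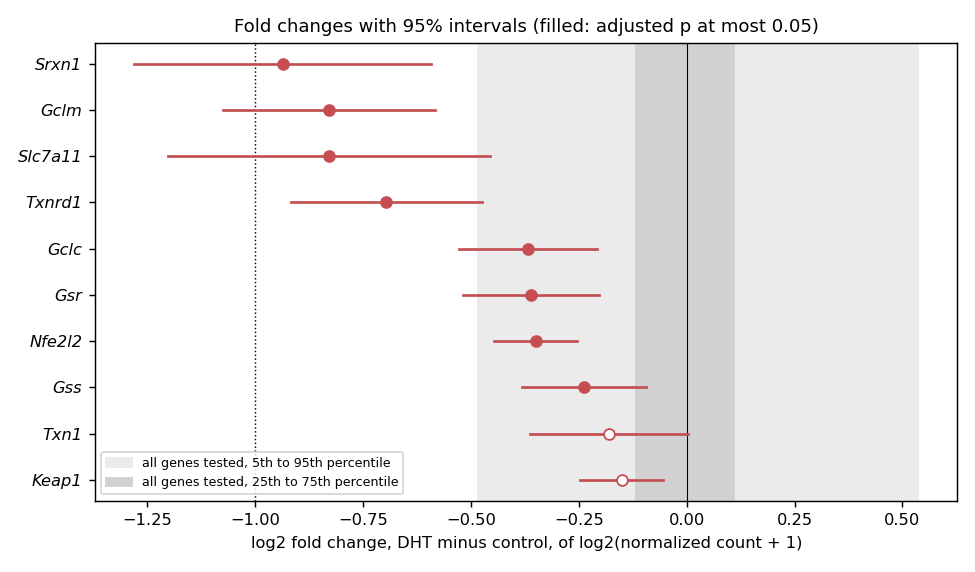
Log2 fold change of each gene, DHT minus control, with its 95% interval from limma, in order of size. Filled points passed (adjusted p no higher than 0.05), the dotted line marks −1, and the shaded bands hold the fold changes of all genes tested between the 25th and 75th percentiles (−0.12 to 0.11) and between the 5th and 95th (−0.48 to 0.54). Srxn1, Gclm, Slc7a11 and Txnrd1 lie beyond the wider band.

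To compare genes with each other, counts were also scaled to exon length and library size and given as RPKM, the usual scale of reads per kilobase of exon and library depth. In control cells Txn1 was highest at 267 ± 27.8 RPKM, followed by Txnrd1 at 130 ± 21.6, Srxn1 at 56.8 ± 13.8 and Nfe2l2 at 55.6 ± 2.93 (SD, n = 3 each). Gsr stood at 48.3, Gclc at 45.4, Gclm at 26.5, Keap1 at 11.8, Gss at 5.71 and Slc7a11 at 1.14, while the median over all genes was 4.23. In this order Srxn1 and Nfe2l2 overlapped across the control libraries, as did Gsr and Gclc, and the other neighbours were apart. With DHT the level of Srxn1 was 28.5, below Nfe2l2 at 42.7, Gsr at 36.7 and Gclc at 34.4, so Srxn1 moved from the third to the sixth place. These levels depend on the length assumed. With the longest transcript of each gene in place of all its exons, Txnrd1 stood at 255 in control, close to Txn1 at 267, Nfe2l2 at 85.3 and Gss at 10.4, and the rank of 4 members changed, so the order above holds only for the length of all exons.

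**Figure D3:**
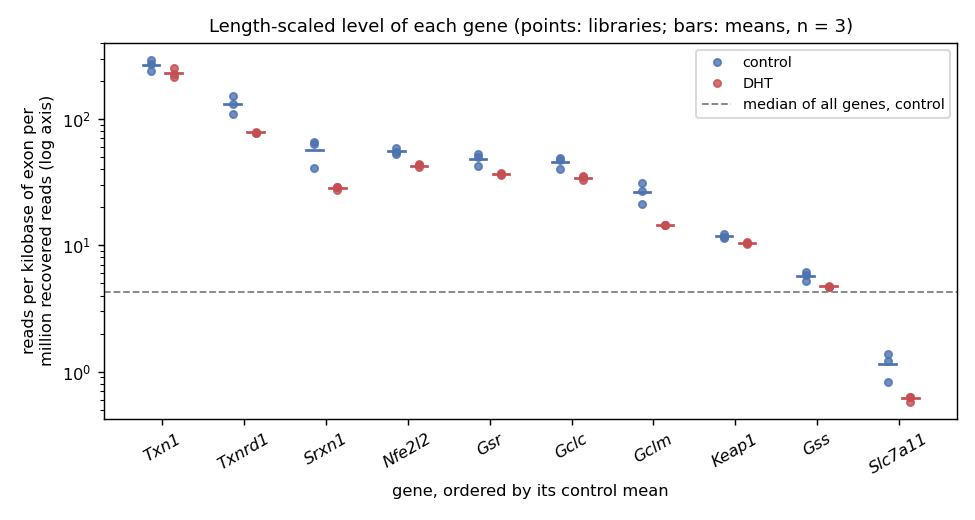
Level of each gene in RPKM (log axis), genes ordered by their control mean, with 1 point per library and a bar at the mean of 3. The genes span from 1.14 for Slc7a11 to 267 for Txn1 in control, and the dashed line marks the median of all genes at 4.23.

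Summed over the 10 genes, the RPKM level went from 649 ± 62.8 in control to 481 ± 19.6 with DHT (SD, n = 3 each), or to 74.2% of control. The sum over the glutathione genes Slc7a11, Gclc, Gclm, Gss and Gsr went from 127 ± 15.1 to 90.9 ± 0.512, or to 71.5%. The sum over the thioredoxin genes Txn1, Txnrd1 and Srxn1 went from 455 ± 47.7 to 338 ± 20.1, or to 74.3%. In each sum the DHT libraries all lay below the controls.

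The control libraries differed among themselves more than the DHT libraries did. The SD of log2 counts was larger in control for 10 of 10 members, against 58.3% of all genes tested, although for Txn1 the SDs of the groups were nearly equal. It was over 5 times larger for Gclm, Gss, Txnrd1 and Srxn1, against 5.30% of all genes. Control replicate 2 had the lowest control count for 7 members, Slc7a11, Gclc, Gclm, Gss, Gsr, Txnrd1 and Srxn1. Over all genes tested it was the lowest control for 30.8%, and over all genes that fell for 39.9%. These comparisons of spread were chosen after the values were seen and are given as a description with no test. Without control replicate 2 the log2 fold changes were −1.16 for Srxn1, −1.05 for Slc7a11, −0.98 for Gclm and −0.82 for Txnrd1, so that 2 members then passed both thresholds in limma. Without control replicate 1 they were −0.84, −0.68, −0.71 and −0.59, and all 4 still passed.

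**Figure D4:**
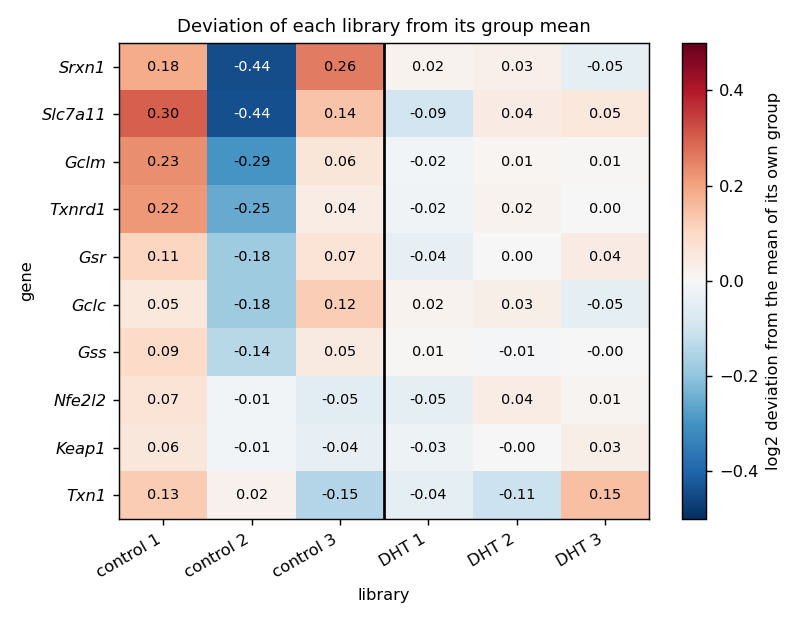
Deviation of each library (columns) from the mean of its own group, in log2 units, for each gene (rows), with red above and blue below that mean. Control replicate 2 lies 0.44 below its group mean for Srxn1 and Slc7a11, and the DHT columns are pale except for Txn1.

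The other genes of the same systems were read from 4 further lists, none of which holds a member. These lists too were drawn up with earlier results of these data known, so their shares are a description and not independent support. Of 12 partners of NRF2, such as small MAF proteins, BACH repressors and ubiquitin ligase parts, 2 rose, 0 fell and 10 did not pass, and the median log2 fold change was 0.045. The rises are 16.7% of so short a list, against 6.52% of all genes, and by unadjusted p 3 were higher and 1 was lower, against 13.4% and 11.8% of all genes, so these counts are given as values only. Mafk, a small MAF protein that pairs with NRF2 on DNA, went from 4027 ± 399 to 5391 ± 262 (SD, n = 3 each), a log2 fold change of 0.42 (limma adjusted p = 0.00466). Nfe2l1, a relative of NRF2 known for inducing proteasome genes, rose by 0.14 on the log2 scale (limma adjusted p = 0.0409). The call for Nfe2l1 was lost when any library was left out (adjusted p 0.0507 to 0.178), and that for Mafk was lost without the intensity trend (0.0584), where 0 partners rose. Without control replicate 2 the counts were 1 partner higher and 2 lower, Sqstm1 (log2 fold change −0.27, limma adjusted p = 0.00989) and Mafg (−0.19, adjusted p = 0.0280), both named after their values were seen. Without control replicate 3, 2 partners were higher and 0 lower. Maff then passed with a log2 fold change of 0.63 (limma adjusted p = 0.000669), against 0.41 (0.159) with all libraries. It too was named after its values were seen.

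Of 31 other genes of the thiol system (the other thioredoxin and thioredoxin reductase genes, Txnip, glutaredoxins, peroxiredoxins, sestrins, glutathione peroxidases, the enzymes that break glutathione down and its mitochondrial carriers), 1 rose, 3 fell and 27 did not pass. These counts are 3.23% and 9.68% of the list, against 6.52% and 4.66% of all genes, and the median log2 fold change was −0.055. By unadjusted p 3 were higher and 8 lower, against 13.4% and 11.8% of all genes, and in 10 of the 31 every DHT library lay below every control, against 14.7%. The closest relatives of the members did not pass, with log2 fold changes of 0.024 for Txn2, 0.075 for Txnrd2 and 0.22 for Txnrd3 (limma adjusted p = 0.816, 0.586 and 0.0523), named for their kinship after their values were seen, and for Txnrd3 every DHT library lay above every control. Without the intensity trend 0 rose and 0 fell, and the 4 genes below are given as values. The peroxidase Gpx1 had a log2 fold change of −0.23 (limma adjusted p = 0.0217, and 0.107 without the trend). Among the genes that break glutathione down, the values were −0.53 for Ggt5 (limma adjusted p = 0.0220, and 0.0808 without the trend), −0.32 for Chac2 (0.0351 and 0.0722) and 0.67 for Chac1 (0.0411 and 0.142). The counts in this list were small and depended on single libraries, and 0 rose when any library other than control replicate 3 or DHT replicate 1 was left out, while 3 rose without control replicate 3. The falls numbered 2 without control replicate 1 or DHT replicate 1, and 1 without DHT replicate 2 or 3. The peroxiredoxins that Srxn1 repairs did not pass, with a log2 fold change of −0.15 for Prdx1 (limma adjusted p = 0.0795), a gene named here because of that role after its value was seen.

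Of 17 genes that supply cysteine and the other building blocks, 5 rose, 0 fell and 12 did not pass, with a median log2 fold change of 0.11. The rises are 29.4% of the list, against 6.52% of all genes. By unadjusted p 8 were higher and 1 was lower, against 13.4% and 11.8% of all genes. Slc3a2, the heavy chain that Slc7a11 needs at the cell surface, had 6781, 7172 and 8522 in control and 9906, 9418 and 9815 with DHT. Its groups did not overlap, and the log2 fold change was 0.38 (SE 0.075, limma adjusted p = 0.0121), opposite in sign to that of Slc7a11. The same heavy chain also serves Slc7a5, a carrier of large neutral amino acids, which rose by 0.24 (limma adjusted p = 0.00885). Atf4, a transcription factor of the amino acid response, rose by 0.30 (limma adjusted p = 0.00896), and the neutral amino acid carrier Slc1a5 rose by 0.25 (adjusted p = 0.0156). The fifth was Shmt2, a mitochondrial enzyme that makes glycine, which rose by 0.21 (limma adjusted p = 0.0184) and lies outside the naming rule. The number that rose was 3 without DHT replicate 2 and 2 without DHT replicate 3. Without the intensity trend 1 was left, Slc1a5 (limma adjusted p = 0.0292), and the adjusted p was 0.0895 for Slc3a2, 0.0706 for Slc7a5, 0.0756 for Atf4 and 0.0935 for Shmt2.

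Of 23 further genes known as NRF2 targets, 0 rose, 15 fell and 8 did not pass, with a median log2 fold change of −0.43. Without the intensity trend 8 of the 15 still passed, Nqo1, Hmox1, Ephx1 and Fth1 among them, and 12 fell when any DHT library was left out. The falls are 65.2% of the list, against 4.66% of all genes. By unadjusted p 1 was higher and 18 were lower, against 13.4% and 11.8% of all genes. Nqo1, a quinone reductase, had 1207, 655 and 901 in control and 237, 257 and 230 with DHT. The groups were far apart, and Nqo1 changed by −1.89 on the log2 scale (SE 0.183, limma adjusted p = 0.000397). Hmox1, the enzyme that opens the heme ring, went from 10885 ± 1299 to 4668 ± 25.2 (SD, n = 3 each), a log2 fold change of −1.21 (limma adjusted p = 4.86e-05). Nqo1 and Hmox1 were the 2 genes of this list past both thresholds in limma, and both passed without the intensity trend too (adjusted p 0.0194 and 0.0117). The epoxide hydrolase Ephx1 fell by 0.48 (limma adjusted p = 0.000397), and the ferritin heavy chain Fth1 fell by 0.56 (adjusted p = 0.000691). Control replicate 2 was the lowest control for 22 of these 23 genes, as it was for 7 of the 10 members.

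**Figure D5:**
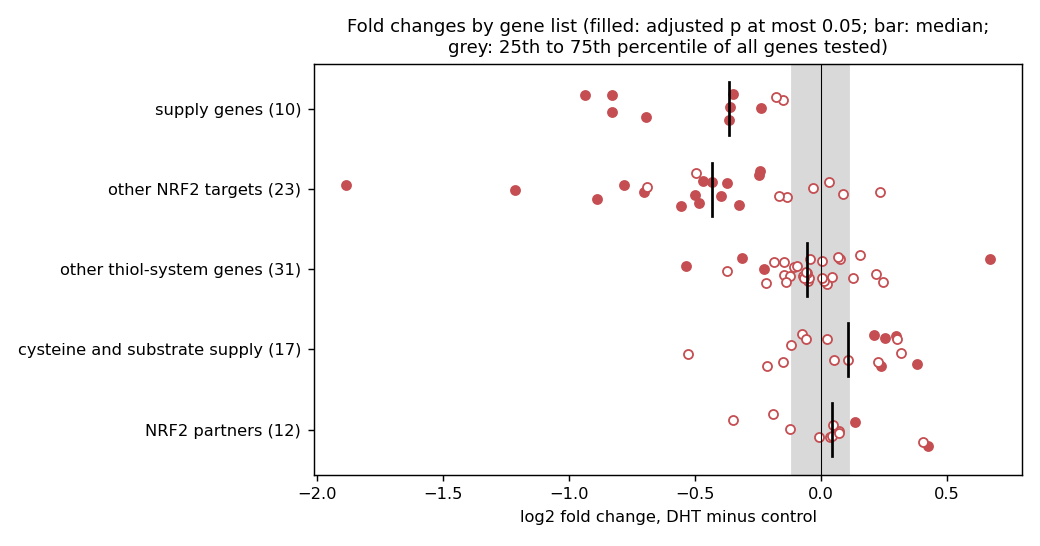
Log2 fold change (DHT minus control) of each gene in the 5 lists, with list sizes in brackets, filled points for genes that passed, a bar at each median and a grey band for the 25th to 75th percentiles of all genes tested. The medians are −0.36 for the 10 supply genes, −0.43 for the other NRF2 targets, −0.055 for the other thiol-system genes, 0.11 for cysteine and substrate supply and 0.045 for the NRF2 partners.

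The libraries were checked for the cells they are labelled as. Of 12 granulosa markers 11 were listed (Cyp19a1 was not), and their summed count was 287122 to 296395 in control and 305264 to 320290 with DHT. The higher sum rests on Cyp11a1, the enzyme that opens steroid synthesis, whose mean count went from 87825 to 123349 (limma adjusted p = 0.00997). Without Cyp11a1 the sum was 199370 to 212536 in control and 183517 to 196806 with DHT, and every DHT library was then the lower. That lower sum rests in turn on the inhibin subunit Inha, whose mean count went from 54181 to 35515. By limma 3 of the 11 granulosa markers fell, 1 rose and 7 did not pass, where 4.66% of all genes fell and 6.52% rose. On the log2 scale Inha fell by 0.61 (limma adjusted p = 0.00162) and the estrogen receptor Esr2 by 0.36 (adjusted p = 0.00149). The identity factor Foxl2 fell by 0.15 with a limma adjusted p of 0.0490, close to the threshold. The theca-defining Cyp17a1 and Insl3 were not listed, and the other 2 of 4 theca markers summed to 2444 to 2837 in control and 2257 to 2368 with DHT. Those 2 went in opposite directions without passing, Ptch1 from 2543 to 2218 (limma adjusted p = 0.0640) and Lhcgr from 36.2 to 79.5 (adjusted p = 0.110). The summed counts of macrophage markers (5 of 7 listed), endothelial (4 of 5), stromal (6 of 6), epithelial (5 of 5) and oocyte markers (8 of 8) overlapped between the groups, and in these lists only 1 macrophage gene, Csf1r, passed the test, with a log2 fold change of −0.64. The part of these shifts in the falls of the members was not tested, and in bulk RNA fewer cells of a type cannot be told apart from less RNA per cell.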

How the data were processed

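RNA-seq was performed on primary mouse GC cultures, 3 control and 3 DHT libraries, each a pool of 5 mice. Per the study's methods and the submitters' processing notes, the authors trimmed reads with Trimmomatic 0.36, aligned them to GRCm38 with STAR 2.5.2b and counted unique exon reads with featureCounts of Subread 1.5.2. The annotation release and the strand setting of the counting are not given in the sources used here. The deposited values are a signal, that is gene counts divided by DESeq2 size factors by the authors. Fold changes and p-values of the authors' own comparison, in the same table and in a second one, were not used.

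The values were tested with limma 3.58.1 in R 4.3.3 on log2(value + 1) with an intensity trend, for genes with a mean of at least 10 over the 6 libraries, without a replicate block and with Benjamini-Hochberg adjustment over all genes tested. The script was tested on simulated data. P-values measure the spread between pools. Ratios of 2 genes were compared by exact permutation over the 20 ways of dividing 6 libraries. Dividing by the value of 1 read gave whole numbers (within 0.01) for 100% of values in each library, and these reads were used for depth, length-scaled levels and a trimmed-mean scaling, but not for a count test. Depth limits only counting error.

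The members and all lists were chosen with earlier results of these data known. All 10 members were named, and of each other list the up to 4 genes with the smallest adjusted p among those that passed and any gene past both thresholds. Alternatives were pseudocounts of 0.5 and 8, no filter or a mean of at least 50, other scalings, no trend, a replicate block and leaving out each library.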

Additional observations from a re-analysis of the deposited data

How the results depend on the processing

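No member's fold change and no ratio of members reversed its direction under any alternative run. The NRF2 partners went from 2 higher and 0 lower to 1 higher and 2 lower without control replicate 2. The summed granulosa markers, DHT minus control, went from 21796 to −13728 normalized counts without Cyp11a1, an alternative chosen after seeing the data. The negative difference rests on Inha, whose mean count went from 54181 to 35515. Without the intensity trend the members that fell numbered 3 (Nfe2l2, Gclm and Txnrd1), the other NRF2 targets that fell 8, and all genes 501 higher and 303 lower. The same setting left 0 NRF2 partners higher, 0 thiol-system genes higher, 0 lower, and 1 cysteine supply gene higher. Quantile normalization gave 1 NRF2 partner higher and 1 lower. A mean of at least 50 or trimmed-mean scaling gave 2 thiol-system genes higher. Same-numbered libraries did not deviate together (correlations of 0.0058, 0.067 and −0.24), and 1 of 6 libraries correlated best with its own number. A replicate block gave 7 members lower, with Gss at a limma adjusted p of 0.0921, 633 genes higher and 357 lower, 1 NRF2 partner higher, 1 thiol-system gene lower and 3 cysteine supply genes higher. Within pairs the ratios cannot go below an exact p of 0.25.

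Leaving out each library in turn gave 6 to 8 members lower and 0 to 2 past both thresholds. It gave 1 to 2 NRF2 partners higher and 0 to 2 lower, 0 to 3 thiol-system genes higher and 1 to 4 lower, 2 to 6 cysteine supply genes higher and 0 to 1 lower, and 0 to 1 other NRF2 targets higher and 12 to 15 lower. All genes ranged from 581 to 1237 higher and from 350 to 857 lower. Nfe2l2, Gclm and Txnrd1 passed in all 14 alternatives, Slc7a11, Gsr and Srxn1 in 13, Gclc in 12, Gss in 7, Keap1 in 3 and Txn1 in 0. With the longest transcript the summed level in control was 822 in place of 649. The count tests with 2 other tools were planned and not run, because the unit check did not accept recovered reads as counts in 3 libraries.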
